A study of Homo sapiens with 6 samples.

Results

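The basement membrane genes of AN3CA, an established human endometrial cancer (EC) cell line, were followed in RNA-seq libraries with and without *PAX2* knockdown (KD). The genes were chosen by symbol, with earlier results of the same comparison known, and comprise laminin chains, type IV collagen chains and a fixed list of other basement membrane genes. Of the 34 symbols described here, 30 had a row among the 17471 genes listed. *FREM1*, *SMOC2*, *COL4A3* and *COL4A4* were not analysed here. Because the genes were selected on the contrast described below, their values are a description and not independent support for any direction.

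The series holds 6 libraries from AN3CA cells that express *PAX2*, a paired-domain transcription factor of the developing urogenital tract. In 3 libraries the cells carried the empty lentiviral hairpin vector (shEV), and in 3 they carried the same kind of vector with a short hairpin RNA against *PAX2* (shPAX2). All cells of both groups were transduced and selected with puromycin, were grown in serum, and carry no other labelled change. A single hairpin was used, so an effect of that hairpin sequence and an effect of lower *PAX2* cannot be told apart. The study's text elsewhere calls the AN3CA control a scrambled hairpin, and the labels' empty vector is followed here. The comparison asks which transcripts change when *PAX2* is lowered, though not abolished, in an EC line that expresses it. Nothing in the labels says that the 3 libraries of a group came from separate cultures, so the p-values measure only the spread between these samples, which may be technical.

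A basement membrane is a thin sheet of matrix on which epithelial, endothelial, muscle and nerve cells rest. Laminins, each built from an α, a β and a γ chain, polymerise at the cell surface, where integrins and dystroglycan hold them. Type IV collagen, a trimer of α chains, forms another network, and nidogens, perlecan and agrin link the networks to each other and to the cell. In the endometrium a basement membrane underlies the glands and the luminal epithelium, and carcinomas cross it when they invade.

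Values are TPM, reads divided by gene length and scaled to the library total, so that levels of different genes can be set side by side. A fold change is on the log2(TPM + 0.5) scale, shPAX2 against shEV, with its standard error (SE). A gene was tested where its TPM reached 0.5 in at least 3 libraries, and 2 conditions made the threshold for a call: adjusted p below 0.05, and a log2 fold change at or beyond 1 in either direction. Of the 30 genes, 12 were tested. Libraries held 10730909 to 18221859 reads in shEV and 19422615 to 29405787 in shPAX2, so every shPAX2 library was deeper. Within shPAX2, replicate 1 stood apart: the chi-square of reads over genes, per degree of freedom, was 12 and 14.9 against replicates 2 and 3 and 3.72 between those, beside 3.12 to 5.3 within shEV. Without it the 4 members called below had log2 fold changes of −2.90 (*LAMB1*), −2.28 (*COL18A1*), −1.44 (*NTN1*) and −1.23 (*AGRN*), all still past the threshold. *PAX2* itself stood at 4.03, 3.66 and 2.74 TPM in shEV and at 0.916, 0.723 and 1.17 TPM in shPAX2. The groups did not overlap, and the shPAX2 mean was 26.9% of the shEV mean, so the knockdown was partial. The log2 fold change was −1.47 (SE 0.18, adjusted p = 0.000294).

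The sequences just upstream of the starts of 5 members are shown first, because their transcripts differed in level or in change. They are the β-chain genes *LAMB1* and *LAMB2*, the collagen gene *COL18A1* with 2 annotated starts, and the neighbouring pair *COL4A5* and *COL4A6*. That pair differed in level, and *COL4A6* was not tested for change. Each run is the 250 bases before a RefSeq gene start on build GRCh38.p14, written 5′ to 3′ on the strand of the gene. For *LAMB1*, *LAMB2* and *COL18A1*, capitals mark the GC box GGGCGG or its reverse complement CCGCCC. For the collagen pair, whose starts lie 380 bases apart on opposite strands, capitals mark the 121 bases that both windows share.
LAMB1, chr7:108003162-108003411, minus strand: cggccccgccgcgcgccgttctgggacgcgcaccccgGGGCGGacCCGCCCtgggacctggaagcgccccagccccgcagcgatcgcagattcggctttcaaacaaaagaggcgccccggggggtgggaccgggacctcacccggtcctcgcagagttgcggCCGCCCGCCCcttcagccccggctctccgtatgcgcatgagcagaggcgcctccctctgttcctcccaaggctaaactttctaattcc
LAMB2, chr3:49133051-49133300, minus strand: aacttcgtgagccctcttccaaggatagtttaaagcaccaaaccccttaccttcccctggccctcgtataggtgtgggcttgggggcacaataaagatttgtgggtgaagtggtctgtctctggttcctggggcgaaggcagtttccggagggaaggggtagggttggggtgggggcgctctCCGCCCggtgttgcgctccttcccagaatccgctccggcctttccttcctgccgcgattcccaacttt
COL18A1 first start, chr21:45404915-45405164, plus strand: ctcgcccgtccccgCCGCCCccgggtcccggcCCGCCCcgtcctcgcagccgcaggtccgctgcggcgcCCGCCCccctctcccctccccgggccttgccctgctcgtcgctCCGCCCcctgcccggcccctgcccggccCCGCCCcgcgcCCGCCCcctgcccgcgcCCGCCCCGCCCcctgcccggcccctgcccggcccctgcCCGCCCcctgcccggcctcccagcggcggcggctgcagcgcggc
COL18A1 second start, chr21:45455272-45455521, plus strand: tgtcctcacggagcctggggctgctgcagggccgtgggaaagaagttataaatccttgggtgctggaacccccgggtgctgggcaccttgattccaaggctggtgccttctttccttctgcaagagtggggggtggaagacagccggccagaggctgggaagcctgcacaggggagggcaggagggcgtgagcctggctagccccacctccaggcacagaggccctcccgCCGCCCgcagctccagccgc
COL4A5, chrX:108439588-108439837, plus strand: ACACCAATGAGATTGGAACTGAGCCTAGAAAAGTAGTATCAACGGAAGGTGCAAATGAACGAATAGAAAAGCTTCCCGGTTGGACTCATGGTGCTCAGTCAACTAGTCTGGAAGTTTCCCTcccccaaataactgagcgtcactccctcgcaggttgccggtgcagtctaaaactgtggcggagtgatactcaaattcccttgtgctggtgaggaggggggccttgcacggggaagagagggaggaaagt
COL4A6, chrX:108439459-108439708, minus strand: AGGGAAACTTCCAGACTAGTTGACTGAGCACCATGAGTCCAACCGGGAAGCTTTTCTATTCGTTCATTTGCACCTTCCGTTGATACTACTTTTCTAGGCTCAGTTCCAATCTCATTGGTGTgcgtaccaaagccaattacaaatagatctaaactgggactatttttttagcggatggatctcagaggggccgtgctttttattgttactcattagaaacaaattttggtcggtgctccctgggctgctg

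The windows differed in composition. GC made up 70.4% of the *LAMB1* window, with 4 GC boxes, and 58.4% of the *LAMB2* window, with 1. The first *COL18A1* start was 88.4% GC with 9 GC boxes, some of them overlapping. The second start was 66.4% GC with 1 GC box and, on the strand shown, 1 run of the TATA letters TATAAA. No GC box lay in either window printed for the collagen pair, while a second annotated start of *COL4A6*, at chrX:108438423-108438672 and not printed, had 1. Read on both strands, the GC box was found in 42.6% of 35116 RefSeq windows of the same length and TATAAA in 10.7%. The letters GCGTGAC, part of the site bound by the PAX2, PAX5 and PAX8 family, were found in 2.2% of all windows, and among tested members with a window only in that of *DAG1*. A match describes letters only, and none of these windows was measured for binding. A window was at hand for 9 of the 12 tested members and not for *AGRN*, *LAMC3* and *NTN1*. Of those with a window not printed, *LAMC1* had 3 GC boxes and *DAG1* 3 at each of 2 starts. *LAMA5* had 5, *HSPG2* 8 and *SPARC* 0. The printed windows were picked by how the transcripts behaved, and a relation of GC boxes to the changes was not tested.

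In the knockdown libraries, *LAMB1*, *COL18A1*, *NTN1* and *AGRN* were lower past the threshold. These are 4 of the 12 tested members described here. Among all 13163 genes tested, 4.54% passed in either direction, 3.11% lower and 1.43% higher. Without the fold threshold, 8 of these members, all lower, had an adjusted p under 0.05, beside 42.8% of all genes tested, 30.5% lower and 12.2% higher. The groups did not overlap in 9 of 12 members, beside 54.9% of all genes tested. The median log2 fold change was −0.44 over the 12 members and −0.10 over all genes tested. Because the members were chosen with this contrast in view, nothing is read from the difference between these shares.

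**Figure D1:**
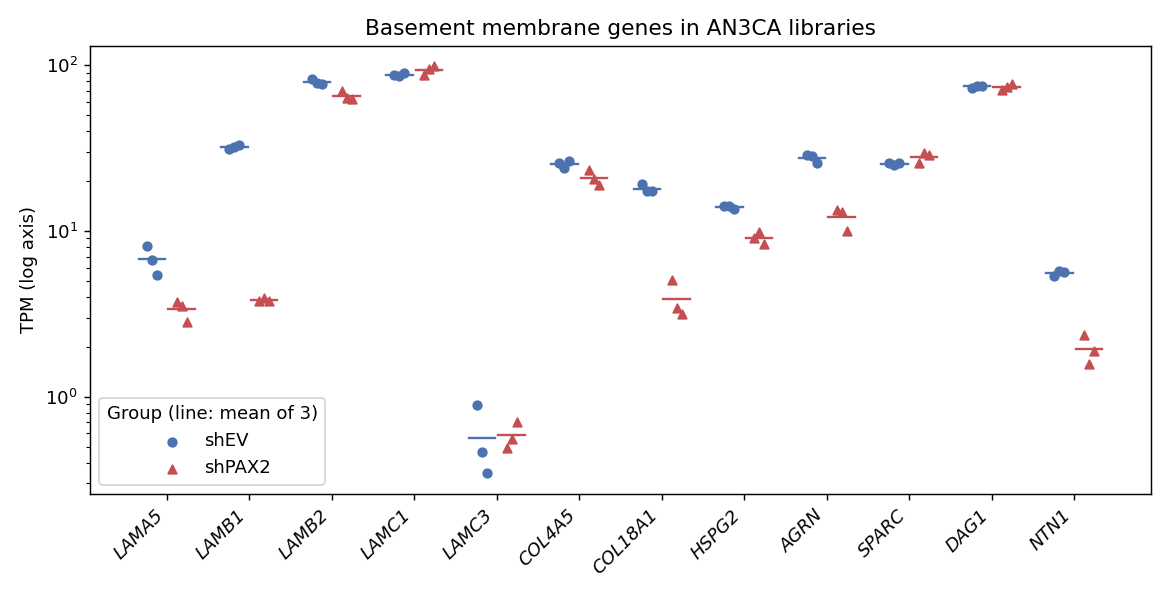
TPM of 12 tested basement membrane genes in each of 3 shEV (circles) and 3 shPAX2 libraries (triangles), on a log axis, with a line at each group mean. *LAMB1*, *COL18A1*, *AGRN* and *NTN1*, which passed the threshold, separate downward in shPAX2. *LAMA5*, *LAMB2*, *COL4A5* and *HSPG2* also lie lower without overlap, *SPARC* lies just higher, and *LAMC1*, *LAMC3* and *DAG1* overlap.

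The laminin β chains moved furthest apart. *LAMB1* encodes a β chain of widely expressed laminins and spans chr7:107564244-107643658 on the minus strand (GRCh37). Its level was 31.2, 32.0 and 33.0 TPM in shEV and 3.77, 3.95 and 3.77 TPM in shPAX2. The 3 shPAX2 libraries lay close together and far under all shEV libraries, at 11.9% of the shEV mean. The log2 fold change was −2.91 (SE 0.07, adjusted p = 2.99e-08), the 24th lowest of the 13163 genes tested. The values rested on 978, 1653 and 1740 reads in shEV and 337, 311 and 215 reads in shPAX2.

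*LAMB2* encodes the β chain that is prominent in the kidney glomerulus and at the neuromuscular junction. Its level was 82.4, 77.5 and 76.4 TPM in shEV and 69.4, 62.9 and 62.6 TPM in shPAX2. The groups did not overlap, but the difference was small beside that of *LAMB1*, with a log2 fold change of −0.28 (SE 0.06, adjusted p = 0.00783). Scaling by the median of ratios, which brings the median of all genes to 0.00, left −0.17 and an adjusted p of 0.062, and removing each chromosome's median left −0.15 and 0.106. *LAMB3*, a β chain of epidermal laminin, and *LAMB4*, which lies next to *LAMB1* on the same strand of chromosome 7, had at most 1 read in any library.

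The β-chain transcripts therefore changed in makeup as well as amount. *LAMB1* made up 27.4%, 29.2% and 30.1% of the summed β-chain TPM in the shEV libraries and 5.15%, 5.90% and 5.68% in the shPAX2 libraries. The rest was *LAMB2*, at 71.1% ± 1.36 in shEV and 94.4% ± 0.387 in shPAX2 (SD, n = 3 each). Their sum came to 111 ± 2.37 TPM in the shEV libraries and 68.8 ± 3.77 TPM in the shPAX2 libraries. The TPM ratio of *LAMB1* to *LAMB2* was 0.407 ± 0.0269 in shEV and 0.0591 ± 0.00433 in shPAX2. A ratio of transcripts says nothing of the proteins secreted.

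**Figure D2:**
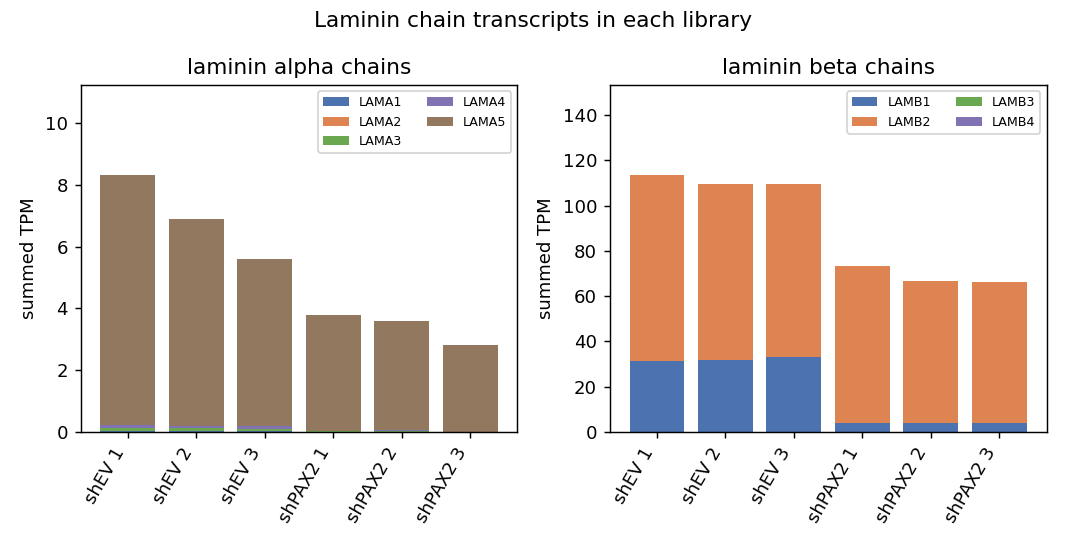
Summed TPM of the laminin α and β chains in each library, stacked by gene from 0. The *LAMB1* segment shrinks in the 3 shPAX2 libraries, *LAMB2* remains the main β chain, and *LAMA5* makes up nearly all α-chain transcript.

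*LAMC1*, the γ chain of most laminins, spans chr1:182992555-183114727 on the plus strand (GRCh37). Its level was 87.7, 85.8 and 89.5 TPM in shEV and 86.9, 94.5 and 98.3 TPM in shPAX2. The groups overlapped, and the log2 fold change was 0.09 (SE 0.06, adjusted p = 0.291). With scaling by the median of ratios it was 0.19 (adjusted p = 0.0276), and with chromosome medians removed 0.17 (adjusted p = 0.0455). *LAMC3* passed the filter narrowly, with 0.345 to 0.886 TPM in shEV and 0.493 to 0.706 TPM in shPAX2, and its log2 fold change was 0.06 (SE 0.22, adjusted p = 0.858).

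Of the α chains, only *LAMA5* was tested. It encodes the α chain found in most adult epithelial and vascular basement membranes. Its TPM ran from 5.41 to 8.09 in shEV and from 2.83 to 3.73 in shPAX2, without overlap. The log2 fold change of −0.90 (SE 0.15, adjusted p = 0.00187) fell short of the fold threshold, which it passed only when shEV replicate 3 was left out. *LAMA5* made up 96.9% ± 0.334 of α-chain TPM in shEV and 98.9% ± 1.08 in shPAX2. The α-chain sum came to 6.94 ± 1.36 TPM in the shEV libraries and 3.40 ± 0.506 TPM in the shPAX2 libraries, well under the β-chain sum and the *LAMC1* level in both groups. *LAMA1*, the α chain of embryonic laminin, had 1, 3 and 2 reads in the shEV libraries and none in shPAX2, which is at the counting floor of 3 reads per library. *LAMA2*, *LAMA3* and *LAMA4* never exceeded 0.122 TPM.

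Among the type IV collagen chains with a row, transcripts came almost wholly from 1 gene. *COL4A5* encodes a chain that trimerises either with the *COL4A6* chain or with those of *COL4A3* and *COL4A4*, and it is the gene of X-linked Alport syndrome. Its level was 25.7, 24.0 and 26.4 TPM in shEV and 23.4, 20.5 and 19.0 TPM in shPAX2. The highest shPAX2 library lay just under the lowest shEV library. The log2 fold change was −0.27 (SE 0.08, adjusted p = 0.0282), short of the fold threshold, and the adjusted p rose above 0.05 in 9 of 16 alternative fits. *COL4A5* supplied 98.8% ± 0.452 of the summed TPM of the 4 type IV collagen chains with a row in shEV and 97.2% ± 1.36 in shPAX2. *COL4A3* and *COL4A4* are not in that sum.

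*COL4A6*, which starts on the opposite strand and shares the upstream bases printed in capitals above, stood at 0.0996 to 0.146 TPM in shEV and 0.120 to 0.165 TPM in shPAX2. The TPM ratio of *COL4A5* to *COL4A6* was 219 ± 33.2 in shEV and 150 ± 30.3 in shPAX2, on 4 to 15 *COL4A6* reads per library. *COL4A1* and *COL4A2* encode the chains of the common type IV collagen network, and they too share a head-to-head arrangement, on chromosome 13. *COL4A1* did not exceed 0.126 TPM and *COL4A2* did not exceed 0.616 TPM in any library. *PXDN*, the peroxidase that crosslinks type IV collagen, did not exceed 0.0974 TPM.

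Among the other structural components, *COL18A1* showed the largest change. It encodes type XVIII collagen, a proteoglycan whose C-terminal fragment is endostatin, and it spans chr21:46825080-46933634 on the plus strand (GRCh37). Its level was 19.2, 17.3 and 17.4 TPM in shEV and 5.07, 3.43 and 3.15 TPM in shPAX2. All shPAX2 libraries were lower, at 21.6% of the shEV mean, with replicate 1 the highest of them. The log2 fold change was −2.10 (SE 0.15, adjusted p = 2.39e-05). Gene-level values do not tell which of the starts printed above was in use.

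*AGRN* encodes agrin, a heparan sulfate proteoglycan that binds laminin and dystroglycan, and it spans chr1:955500-991498 on the plus strand (GRCh37). Its level was 28.8, 28.2 and 25.6 TPM in shEV and 13.4, 13.0 and 10.0 TPM in shPAX2. The groups were well apart, with a log2 fold change of −1.16 (SE 0.11, adjusted p = 7.5e-05). *HSPG2* encodes perlecan, the other large heparan sulfate proteoglycan of basement membranes. Its level was 14.1, 14.2 and 13.5 TPM in shEV and 9.01, 9.79 and 8.30 TPM in shPAX2. It too was lower in each shPAX2 library, with a log2 fold change of −0.60 (SE 0.08, adjusted p = 0.000511) that did not reach the fold threshold. The nidogens, which bridge laminin and type IV collagen, were near absent, with at most 0.188 TPM for *NID1* and 0.0738 TPM for *NID2*.

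*NTN1* encodes netrin, a laminin-related secreted guidance cue, and it spans chr17:8924827-9147317 on the plus strand (GRCh37). Its level was 5.32, 5.70 and 5.62 TPM in shEV and 2.37, 1.57 and 1.89 TPM in shPAX2. Every shPAX2 library was under every shEV library, at 35.1% of the shEV mean, and the log2 fold change was −1.32 (SE 0.14, adjusted p = 0.000125). *NTN4*, a netrin that binds laminin γ chains, had 2, 3 and 1 reads in the shEV libraries and none in shPAX2, again within the floor.

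*DAG1* encodes dystroglycan, the laminin receptor among the members. Its level was 73.2, 75.2 and 75.1 TPM in shEV and 70.5, 73.4 and 77.1 TPM in shPAX2. The groups overlapped, and the log2 fold change was −0.02 (SE 0.06, adjusted p = 0.835), with a sign that changed in 4 of 16 alternative fits. *SPARC* encodes a matricellular protein that binds collagens. Its level was 25.6, 25.0 and 25.5 TPM in shEV and 25.6, 29.4 and 28.7 TPM in shPAX2. The lowest shPAX2 library lay only just above the highest shEV library, and the log2 fold change of 0.13 (SE 0.07, adjusted p = 0.147) had an adjusted p above 0.05. When shPAX2 replicate 1 was left out it was 0.19 (adjusted p = 0.0307), still far under the fold threshold.

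**Figure D3:**
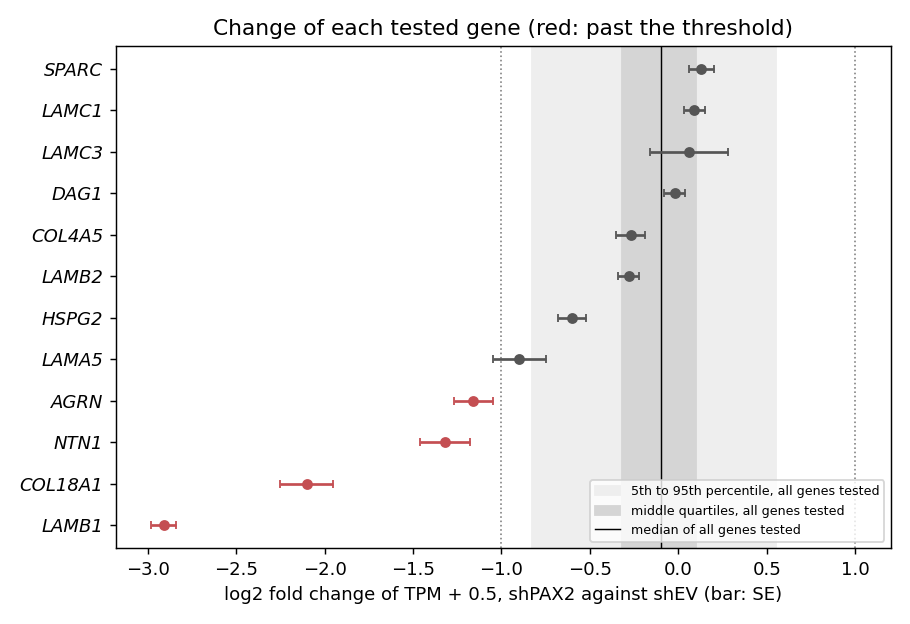
Log2 fold change of TPM + 0.5 (shPAX2 against shEV) with its SE for 12 tested members, over bands for the 5th to 95th (−0.83 to 0.55) and 25th to 75th (−0.32 to 0.10) percentiles of all genes tested. Red points passed the threshold, and dotted lines mark log2 fold changes of −1 and 1.

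The remaining members were barely transcribed in this line. Of the 30, 19 stayed below 1 TPM in every library, *LAMC3* among them. This group held 4 of 5 laminin α chains, *LAMB3* and *LAMB4*, all type IV collagen chains with a row other than *COL4A5*, both nidogens and *PXDN*. It also held *FRAS1* and *FREM2* of the Fraser complex, *NPNT*, *TINAGL1*, *SMOC1* and *NTN4*. In a fit without the filter on low values, 2 of these had an adjusted p under 0.05. They were *LAMA3* (log2 fold change −0.21, adjusted p = 0.0435) and *SMOC1* (−0.45, adjusted p = 0.0472), named here after their values were seen. Both values rest on few recovered reads, and the true counts may be a common multiple of these. *SMOC1* rose above the floor of 3 reads only in shEV replicate 2, where it had 6. *LAMA3* had 7 to 10 reads per shEV library and 6 in shPAX2 replicate 1. Its counts of 3 and 0 in shPAX2 replicates 2 and 3 lay within the floor. These p-values therefore support no call for either gene.

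The genes around the basement membrane were taken from a list arranged by role. Of its 95 symbols, 84 had a row and 58 were tested, of which 2 were higher and 4 lower past the threshold, with a median log2 fold change of −0.12. Among the 53 whose mean reached 0.5 TPM in both groups, 1 was higher and 1 lower, beside the 1.43% and 3.11% of all genes tested given above. The laminin and collagen receptors held 11 tested genes. *ITGA2*, an integrin α chain of collagen receptors, stood at 3.08, 4.32 and 5.08 TPM in shEV and 0.0578, 0.0281 and 0.0648 TPM in shPAX2 (log2 fold change −3.06, SE 0.19, adjusted p = 7.13e-06). *ITGA1*, a collagen-binding integrin α chain with affinity for type IV collagen, stood at 1.90, 2.45 and 1.96 TPM in shEV and 0.0817, 0.108 and 0.150 TPM in shPAX2 (−2.08, SE 0.17, adjusted p = 2.77e-05). *SDC2*, a cell-surface heparan sulfate proteoglycan, stood at 4.33, 4.03 and 4.67 TPM in shEV and 0.0750, 0.128 and 0.0588 TPM in shPAX2 (−3.04, SE 0.15, adjusted p = 1.35e-06). All 3 were near 0 in each shPAX2 library, with 2 to 7 reads, and were tested only through their shEV values, so that their counts support nothing. Of the other 8 receptors none passed the threshold, and 4 were lower at an adjusted p under 0.05, beside 30.5% of all genes tested.

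The dystroglycan complex and its glycosylation enzymes, which make the sugar chain that laminin binds, held none past the threshold of 13 tested. At an adjusted p under 0.05 alone, 5 were higher and 3 lower, beside 12.2% and 30.5% of all genes tested, and their median log2 fold change was 0.00. Of 15 tested genes listed for collagen folding and crosslinking, 1 was higher and 6 lower at an adjusted p under 0.05. The shares of all genes tested are those just given. The 15, and the 6 lower, include *COL4A3BP*, a ceramide transfer gene that neither folds nor crosslinks collagen. Only *PLOD2*, a lysyl hydroxylase, passed the threshold, and it was lower. Its level was 33.5, 37.8 and 61.9 TPM in shEV and 17.8, 14.0 and 12.4 TPM in shPAX2, with wide spread among the shEV libraries (log2 fold change −1.52, SE 0.28, adjusted p = 0.011).

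Among netrin receptors 2 were tested, and they moved in opposite directions. *UNC5B*, a repulsive netrin receptor, was higher, at 9.08, 8.00 and 9.06 TPM in shEV and 18.5, 24.7 and 25.3 TPM in shPAX2 (log2 fold change 1.33, SE 0.12, adjusted p = 6.87e-05). *NEO1*, which encodes the netrin receptor neogenin and is named after its values were seen, stood at 28.2, 26.5 and 31.1 TPM in shEV and 15.4, 15.2 and 15.9 TPM in shPAX2, short of the fold threshold (−0.86, SE 0.07, adjusted p = 3.81e-05). Of 8 tested proteases, 2 were higher and 3 lower at an adjusted p under 0.05, beside 12.2% and 30.5% of all genes tested. Only *MMP10*, a stromelysin, passed the threshold, and it was higher. It stood at 0.424, 0 and 0.0630 TPM in shEV and 1.86, 9.57 and 8.56 TPM in shPAX2, the first shPAX2 library far below the other two (log2 fold change 3.23, SE 0.66, adjusted p = 0.0159). *MMP10* was tested only through its shPAX2 values, with 4, 0 and 1 reads in shEV, so that its counts support nothing. The 9 other basement membrane components that were tested held none past the threshold, with 5 lower and 1 higher at an adjusted p under 0.05 (30.5% and 12.2% of all genes tested) and a median log2 fold change of −0.44. Their largest difference was that of *THBS1*, a matricellular glycoprotein named after its values were seen, at 2.07 (SE 0.64, adjusted p = 0.0603). For both *MMP10* and *THBS1*, shPAX2 replicate 1 was the lowest shPAX2 library. Without it, *MMP10* was at 3.90 (SE 0.27, adjusted p = 4.4e-05) and *THBS1* at 2.71 (SE 0.30, adjusted p = 0.00536), past the threshold. Leaving out the library that disagreed narrows the spread, so these values add no support and *THBS1* stays uncalled here.

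**Figure D4:**
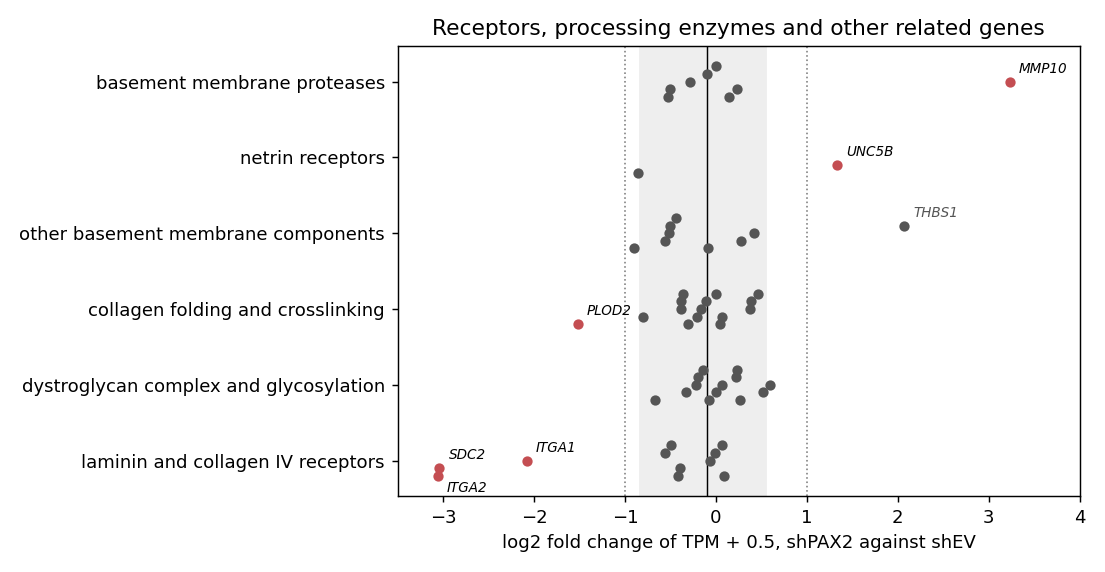
Log2 fold change of TPM + 0.5 (shPAX2 against shEV) for the 58 tested genes around the basement membrane, in rows by role; points within a row are spread vertically for sight only. Red points passed the threshold, *THBS1* is labelled in grey because it did not, and the band and line show the 5th to 95th percentiles and the median of all genes tested.

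Marker lists were read beside these results. The labels call the cells epithelial, but 7 of 8 epithelial markers, *CDH1* and *EPCAM* included, were below 1 TPM in every library, and only *KRT18* was expressed. The summed level of the 7 fibroblast and mesenchymal markers with a row, of 9 named, ran from 4955 to 5358 TPM across shEV libraries and from 4669 to 4781 TPM across shPAX2 libraries, most of it *VIM*. Within that list *COL1A2* was lower and *COL3A1* and *ACTA2* were higher past the threshold. The endothelial sum never exceeded 0.0611 TPM, and the immune sum ran from 1.01 to 1.97 TPM in shEV libraries and from 1.79 to 2.46 TPM in shPAX2 libraries, mostly *CD68*. The part of these shifts in the basement membrane results was not tested, and in bulk RNA fewer cells of a type and less RNA per cell cannot be told apart. By the GENCODE gene models, some members also overlap other genes: *LAMB1* overlaps *DLD*, *COL18A1* overlaps *SLC19A1* and *LAMA5* overlaps *ADRM1*, each on the opposite strand. The gene models on which the reads were counted may differ. Whether reads were counted by strand is not given in the sources used here.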

How the data were processed

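RNA was taken from AN3CA cells with a stranded total RNA kit. The authors deposited 1 table of TPM values, and the submitters' processing notes name bcl2fastq, STAR, Subread, featureCounts, edgeR and the build hg19 (GRCh37), without role or order. Since TPM values add up to a constant, strong shifts in the most abundant transcripts displace the rest. *RPPH1* and *RMRP* together took 12.7% to 14.2% of TPM in shEV and 13.3% to 15.6% in shPAX2. Each library was first divided by a scaling factor of its own. Within each gene the scaled TPM values were then whole multiples of 1 step in 100% of genes (tolerance 1e-09), so reads were recovered up to a factor common to a gene's libraries. Almost any ratio meets that tolerance, so the check lies in a cap on each gene's common denominator. The recovered counts are the smallest that fit, so for sparse genes the true counts may be a multiple of them. Read floors (3 reads) cover counting error only.

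Of 17471 genes, 13163 reached a TPM of 0.5 in 3 or more libraries and entered the test, limma 3.58.1 in R 4.3.3 (lmFit, then trended, robust eBayes) on log2(TPM + 0.5), two-sided, with Benjamini-Hochberg adjustment over all of them. Such fold changes understate the change of low genes. The members and lists were chosen with earlier results of these data known. For the members, 1 item is not reported here and enters no count. Values are given in every library for members past the threshold or with a mean of at least 10 TPM in either group, and related genes are named if past it. Groups came from the titles. Same-numbered libraries did not deviate together (correlations −0.0523, 0.0815 and 0.0014). Libraries of a group differed beyond sampling noise, shPAX2 replicate 1 most. Alternatives were other scalings, pseudocounts, filters, voom on recovered reads, a replicate block and leaving out each library. Gene positions came from GENCODE on GRCh37 and sequences from RefSeq on GRCh38.p14, which were not mixed.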

Additional observations from a re-analysis of the deposited data

How the results depend on the processing

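*LAMB1*, *COL18A1*, *NTN1* and *AGRN* stayed past both thresholds in all 16 alternative fits (64 of 64 values), and *PAX2* stayed lower, at −1.87 to −1.20. Without the fold threshold, 8 members and 5629 genes were called, in place of 4 and 598. Leaving out each library in turn gave 4 to 5 members, the added one being *LAMA5* without shEV replicate 3, and 566 to 679 genes. A fit with the replicate block gave 4 members and 588 genes, and changed no call among the members. The lower share of calls was 68.6%, but 60.7% with median-of-ratios scaling and 55.0% with quantile normalization. *DAG1* changed sign, to 0.11 with chromosome medians removed, 0.0898 with median-of-ratios scaling, 0.0016 with voom on recovered reads and 0.0144 without shPAX2 replicate 1 (−0.0499 to 0.0144 when each library was left out). *LAMC3* changed sign, to −0.0944 without shEV replicate 3 and −0.0216 without shPAX2 replicate 3 (−0.0944 to 0.26 when each library was left out), and was not tested with a filter at 1 TPM. Neither *COL4A5* nor *SPARC* reached the fold threshold in any fit. The adjusted p of *COL4A5* rose above 0.05 in 9 fits (log2 fold change over all 16 from −0.35 to −0.03), and that of *SPARC* fell below it in 4 (0.09 to 0.28). The causes were not tested. Depth limits what can be said of the members under 1 TPM, which other than *COL4A2* and *LAMC3* had at most 15 reads in any library.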

Other observations

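Fibrillar collagen and smooth muscle genes, read as mesenchymal markers, moved in both directions. *COL1A2*, a chain of type I collagen, stood at 855, 809 and 845 TPM in shEV and at 439, 370 and 360 TPM in shPAX2 (log2 fold change −1.11, limma adjusted p = 1.75e-05). Its partner chain *COL1A1* did not exceed 1.48 TPM in any library. *COL3A1*, the chain of type III collagen, stood at 25.8, 38.4 and 41.2 TPM in shEV and at 248, 241 and 236 TPM in shPAX2 (2.79, adjusted p = 0.000122). *ACTA2*, the smooth muscle actin, stood at 77.3, 58.9 and 59.0 TPM in shEV and at 225, 307 and 355 TPM in shPAX2 (2.16, adjusted p = 0.000824). For *COL1A2*, *COL3A1* and *ACTA2* every shEV library lay on one side of every shPAX2 library.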
